A study of Mus musculus with 16 samples.

Results

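The lipolysis and lipid droplet genes examined here are Pnpla2, Lipe, Mgll, Abhd5, G0s2, Plin1, Plin2, Plin5, Adrb3 and Aqp7, 10 genes chosen by name and function among the 21938 protein-coding genes of the GENCODE vM21 annotation on the mouse build GRCm38. Chromatin accessibility was measured by ATAC-seq, which uses the Tn5 transposase to cut and tag open DNA, in brown and white adipose tissue, liver, kidney, spleen, lung, heart and muscle. The wild-type male C57BL/6 mice, acquired at 12 weeks, were either fed chow freely or kept fasting for 24 h, with 3 mice in each state. Each tissue of a state was pooled over its mice into 1 library, which gives 16 libraries, 8 fed and 8 fasting, and all tissues of a state came from the same mice. No group has a second library, so a difference between a fed and a fasting library has no replicate check. In such bulk tissue, a site open in fewer cells and a site less open in every cell cannot be told apart.

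Lipolysis takes stored triglyceride apart in a chain of steps on the surface of the lipid droplet. Adipose triglyceride lipase (Pnpla2) removes the first fatty acid, hormone-sensitive lipase (Lipe) the next, and monoglyceride lipase (Mgll) the last, leaving glycerol. Abhd5 activates Pnpla2 and G0s2 inhibits it, perilipins (Plin1, Plin2 and Plin5) coat the droplet and gate access to it, the beta-3 adrenergic receptor (Adrb3) starts the cascade through cAMP in adipocytes, and aquaglyceroporin 7 (Aqp7) lets glycerol out of the cell. Fasting raises lipolysis in adipose tissue, and the fatty acids are burned in muscle, heart, liver and brown fat.

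Each library is a list of 298996 to 299529 peak summits. A peak's strength is given as its percentile of -log10 p within its library, where 100 is the strongest and 0 means that no peak is listed. In 8 libraries every listed peak had q under 0.01, and in the other 8 the share was 69.9% to 89.7%. Typical background tags per summit, a measure of depth, ran from 2.8 in fed liver to 12.8 in fed brown adipose, with 10.02 in fed white adipose, 6.76 in fasting brown adipose and 5.87 in fasting white adipose. The adipocyte markers Adipoq, Cfd, Lep, Retn and Cidec had mean promoter percentiles of 91.6 (brown adipose) and 87.8 (white adipose), against 22.2 to 54.2 in the other tissues. The brown adipocyte markers (Ucp1, Dio2, Cidea, Cox7a1, Zic1) averaged 90.9 in the former and 54.7 in the latter. White adipose also held signal at macrophage markers (59.4, against 78.1 in spleen and 51.9 in lung). Its hepatocyte markers stood at 54.0 (88.3 in liver, 60.6 in kidney) and its skeletal muscle markers at 52.9 (92.3 in muscle, 48.5 in heart). The skeletal muscle markers were thus higher in white adipose than in any tissue but muscle. The epididymis markers (Adam7, Crisp1, Lcn5, Defb30, Spag11b) had their highest mean in white adipose, 42.3 (56.6 fed, 28.01 fasting), with heart next at 34.1. The part of other cells in the results below was not tested.

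The promoters of these genes were open nearly everywhere. A gene's promoter is taken here as 3000 bp on either side of any of its annotated starts, and its value is the strongest peak with a summit there. Of the 160 pairs of gene and library, 159 held a peak with q under 0.01, against 73.2% of such pairs over all protein-coding genes. Of the 10 genes, 9 were open in every one of the 16 libraries, against 59.9% of all genes. The missing pair was Adrb3 in fasting kidney. With a window of 1000 bp, 154 pairs were open. No peak was then listed for Adrb3 in both kidney libraries, Aqp7 in both lung libraries, Plin1 in fed heart and Plin5 in fasting spleen. The share of all genes at that window is not given here. Abhd5 had the steadiest promoter, between the 96.7th and 99.1st percentile in all 16 libraries, and Adrb3 and Plin5 had the most variable.

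**Figure D1:**
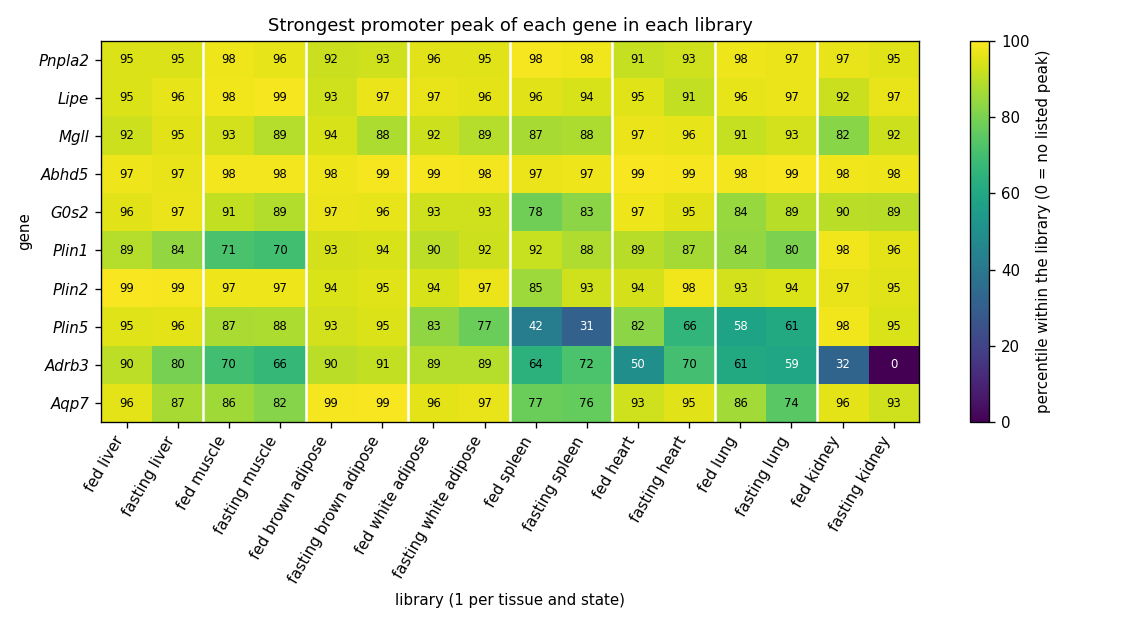
Heat map of the percentile of the strongest promoter peak, with genes as rows and the 16 libraries as columns, paired by tissue; each cell prints its rounded value and 0 means that no peak is listed. The values under 75 are those of Adrb3 outside adipose tissue and liver, of Plin5 in spleen, lung and fasting heart, of Plin1 in muscle and of Aqp7 in fasting lung.

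Whether a promoter's level belonged to its tissue was tested by comparing fed and fasting libraries of the same tissue with all 40320 ways of pairing fed and fasting libraries (one-sided exact permutation test, adjusted over 19719 genes with a listed peak). By this test 7 of the 10 genes followed tissue, against 48.1% of all genes tested: Pnpla2, G0s2, Plin1, Plin2, Plin5, Adrb3 and Aqp7, with adjusted p from 0.00832 (Plin5) to 0.048 (Plin2). Lipe (adjusted p = 0.487), Mgll (0.321) and Abhd5 (0.0886) did not pass this exact permutation test. The Plin2 call was lost with a window of 1000 bp (adjusted exact permutation p = 0.110), with starts of protein-coding transcripts only (0.109), over distinct regions (0.0888), with q under 0.01 only (0.0891) and among the 50000 strongest rows (0.051). With peaks ordered by fold enrichment, 4 genes followed tissue: Pnpla2, Plin5 and Adrb3 of the 7 above, and Mgll.

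Adipose tissue did not stand above the rest at most of these promoters. Only Aqp7 had all 4 adipose libraries above all 12 others, against 1.2% of all genes, and by a narrow margin, 95.78 in fed white adipose to 95.77 in fed kidney. The mean percentile was higher in adipose tissue for 7 of the 10 genes, where 52.7% of all genes tested were higher, and the median difference was 2.62 points, against 0.0927 over all genes. No gene passed the two-sided exact permutation test over the 28 choices of 2 tissues after adjustment, and none of the 10 had an unadjusted p under 0.05, against 1.19% of all genes that were higher in adipose tissue at that level. The smallest p this design allows is 0.0357. The differences for Plin1, Adrb3, G0s2, Lipe and Abhd5 turned negative when peaks were ranked by fold enrichment. In that ranking Pnpla2 (-19.4 points) and Plin1 (-17.1) were lower in fat at the smallest exact permutation p (0.0357, unadjusted).

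Single open sites inside and around the genes gave a finer view than whole promoters. Peaks with q under 0.01 were merged over all libraries into sites, and the gene body with 10 kb on each side held 337 sites for the 10 genes. The 4 adipose libraries listed 139 to 175 of these sites and the 12 others 85 to 122, so the groups did not overlap. The part of depth in this count was not tested. Over the 531445 sites in loci of all protein-coding genes the order was the opposite, with 102669 to 104013 listed in the adipose libraries and 107193 to 149314 in the others. Of the 337 sites, 25 were listed in all 16 libraries (7.42%, against 4.04% of all sites in such loci). Only 1 library listed 101 of them (29.97%), a smaller share than the 41.16% of all sites in such loci.

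**Figure D2:**
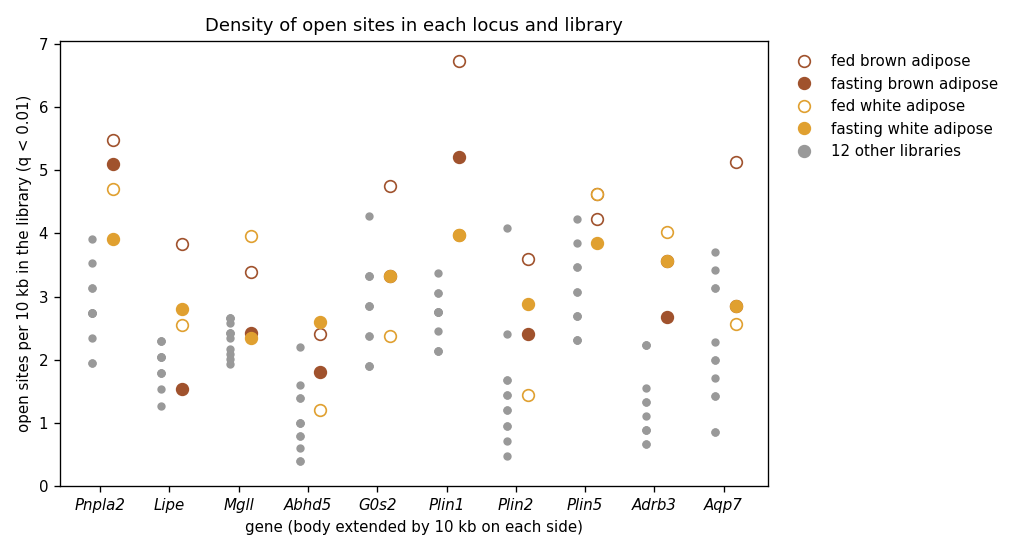
Open sites per 10 kb of locus (q under 0.01) for each gene, with 1 point per library; open and filled coloured points are fed and fasting adipose libraries and grey points are the 12 other libraries. At Plin1 and Adrb3 all 4 adipose libraries lie above all others. At Lipe, Mgll, Abhd5, G0s2, Plin2, Plin5 and Aqp7 the ranges overlap, and at Pnpla2 they meet, with fasting white adipose and fasting muscle both at 3.92.

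A site was called adipose-leading when its lowest percentile in the 4 adipose libraries was above its highest in the 12 others. There were 17 such sites among the 337, or 5.04%, against 1.11% of all sites in loci of protein-coding genes. Adrb3 had 6, Plin1 had 4, Pnpla2 and Mgll had 2 each, and Lipe, Plin2 and Aqp7 had 1 each, while Abhd5, G0s2 and Plin5 had 0. Of the 17, 6 had no listed peak in any other tissue. Within the genes, 8 of the 17 lay in introns, 1 in a coding exon, 2 in untranslated exons and 1 in a non-coding exon, and 4 were upstream and 1 downstream. Built from all listed peaks the count was again 17, of 363 sites (4.68%, against 0.951% of all sites so built). From peaks with q under 1e-06 it was 17 of 239 (7.11%, against 2.31%). Ranked by fold enrichment it was 11 of 337 (3.26%, against 1.04%). With white adipose left out, 41 sites led in brown adipose alone (3.75% of all sites), and with brown adipose left out, 26 led in white adipose alone (2.47%).

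**Figure D3:**
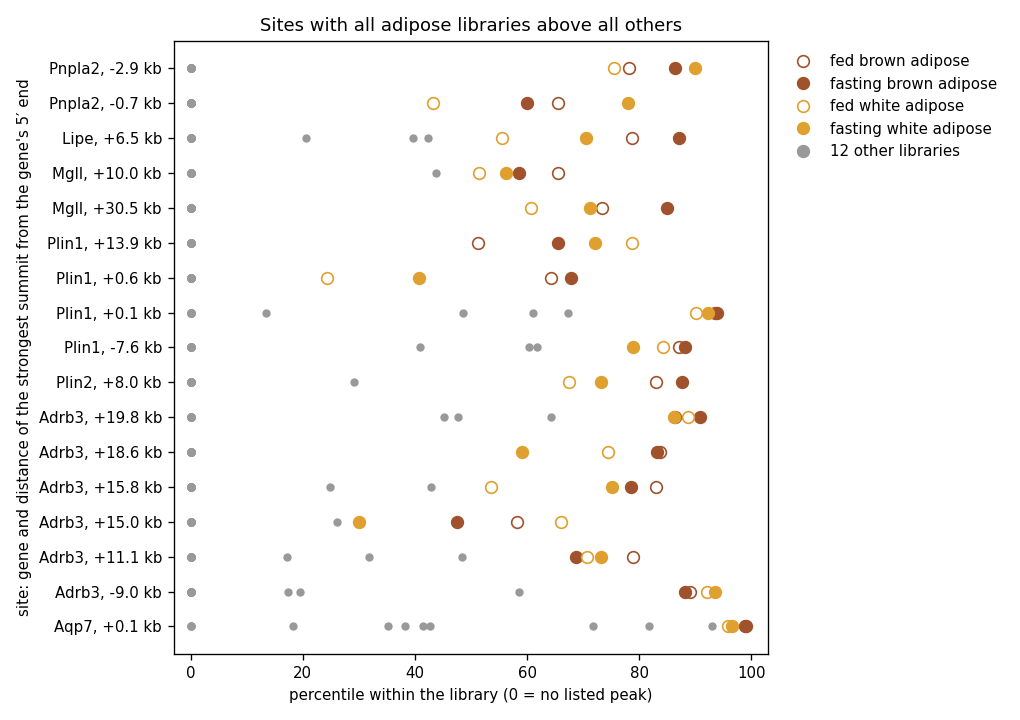
Percentile of each of the 17 adipose-leading sites in each library, with sites named by gene and by the distance of the strongest summit from the gene's 5′ end; coloured points are the 4 adipose libraries (open fed, filled fasting) and grey points the 12 others, of which those at 0 had no listed peak. The sites of Plin1 at its start, of Adrb3 near 19.8 kb and upstream of its 5′ end, and of Aqp7 at its start were above the 85th percentile in all 4 adipose libraries.

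The sequences of the most adipose-biased site of 8 genes, and of the site at the Adrb3 start, are printed. The G0s2 and Aqp7 sites among them were not adipose-leading. At the G0s2 site fasting liver (68.2) was above fed and fasting white adipose (54.6 and 57.0). At the Aqp7 site fasting heart (94.1) was above fed and fasting white adipose (73.6 and 83.7). All sequences were read from the GRCm38 genome on the plus strand, up to 150 bp on either side of the strongest summit. A single capital marks the summit base, a 6-base run in capitals marks an exact AGGTCA or its reverse complement TGACCT, the half-site bound by nuclear receptors, and a 13-base run marks a DR1 element, 2 half-sites with 1 base between them and at most 2 bases different, which PPAR binds together with RXR. Stretches in untranslated exons were left out, so the Plin1 sequence is a short run beside its summit and holds no capital.
Pnpla2, chr7:141452130-141452429: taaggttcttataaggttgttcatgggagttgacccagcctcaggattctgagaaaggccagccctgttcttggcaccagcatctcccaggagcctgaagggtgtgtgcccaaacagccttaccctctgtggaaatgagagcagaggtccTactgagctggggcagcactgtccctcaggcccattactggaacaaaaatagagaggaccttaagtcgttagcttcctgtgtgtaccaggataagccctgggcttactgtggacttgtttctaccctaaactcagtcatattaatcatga
Lipe, chr7:25392092-25392391: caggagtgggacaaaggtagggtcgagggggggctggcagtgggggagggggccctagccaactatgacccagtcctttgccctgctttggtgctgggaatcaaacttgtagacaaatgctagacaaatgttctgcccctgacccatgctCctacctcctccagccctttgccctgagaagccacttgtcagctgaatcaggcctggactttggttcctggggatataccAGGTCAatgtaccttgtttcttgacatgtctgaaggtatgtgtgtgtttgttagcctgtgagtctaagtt
Mgll, chr6:88754807-88755106: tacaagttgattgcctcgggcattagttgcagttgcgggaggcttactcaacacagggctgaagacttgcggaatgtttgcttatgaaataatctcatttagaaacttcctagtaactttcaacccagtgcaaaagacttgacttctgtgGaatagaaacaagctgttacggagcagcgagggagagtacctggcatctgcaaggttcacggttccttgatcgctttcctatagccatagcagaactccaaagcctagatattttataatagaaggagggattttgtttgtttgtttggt
G0s2, chr1:193274462-193274761: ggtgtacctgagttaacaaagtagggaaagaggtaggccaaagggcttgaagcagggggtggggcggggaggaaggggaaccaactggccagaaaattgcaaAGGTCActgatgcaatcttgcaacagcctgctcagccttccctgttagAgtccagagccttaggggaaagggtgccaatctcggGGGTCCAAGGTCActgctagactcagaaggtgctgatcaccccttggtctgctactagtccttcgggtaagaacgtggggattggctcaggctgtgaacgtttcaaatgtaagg
Plin1, chr7:79732619-79732685: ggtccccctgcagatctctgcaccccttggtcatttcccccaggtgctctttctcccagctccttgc
Plin2, chr4:86661957-86662256: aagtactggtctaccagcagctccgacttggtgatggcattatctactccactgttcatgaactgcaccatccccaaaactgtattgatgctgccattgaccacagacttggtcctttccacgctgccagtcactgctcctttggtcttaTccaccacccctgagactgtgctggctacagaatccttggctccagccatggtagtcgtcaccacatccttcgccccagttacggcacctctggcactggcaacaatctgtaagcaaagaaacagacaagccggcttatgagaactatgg
Adrb3 start, chr8:27230658-27230957: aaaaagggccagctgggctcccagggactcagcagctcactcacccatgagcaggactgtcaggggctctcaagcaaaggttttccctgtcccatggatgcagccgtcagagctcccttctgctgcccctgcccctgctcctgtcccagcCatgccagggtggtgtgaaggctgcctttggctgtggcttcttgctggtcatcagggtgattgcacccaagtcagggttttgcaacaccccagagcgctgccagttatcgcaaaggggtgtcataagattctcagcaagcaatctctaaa
Adrb3 upstream, chr8:27259425-27259724: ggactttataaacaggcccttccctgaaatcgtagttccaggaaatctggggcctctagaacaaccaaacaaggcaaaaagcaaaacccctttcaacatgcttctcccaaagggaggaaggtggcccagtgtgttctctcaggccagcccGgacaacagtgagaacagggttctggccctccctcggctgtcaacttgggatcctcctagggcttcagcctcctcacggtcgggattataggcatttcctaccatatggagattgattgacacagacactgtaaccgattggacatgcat
Aqp7, chr4:41041040-41041339: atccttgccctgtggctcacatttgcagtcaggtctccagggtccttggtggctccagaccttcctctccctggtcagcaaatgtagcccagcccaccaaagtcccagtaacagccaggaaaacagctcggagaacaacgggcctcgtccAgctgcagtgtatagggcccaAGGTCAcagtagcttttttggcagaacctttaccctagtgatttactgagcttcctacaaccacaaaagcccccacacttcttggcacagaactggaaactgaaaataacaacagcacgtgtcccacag

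Matches to the DR1 element were rare at these sites. Of the 17 adipose-leading sites 1 held a match within 150 bp of its summit (5.88%), against 6.99% of the 5891 adipose-leading sites and 6.15% of all 531445 sites in loci of protein-coding genes. That match, AGGGGAGAGGTCA on the plus strand at chr4:41048051-41048063, lay 56 bp from the summit at the Aqp7 start. The G0s2 site printed above also held one, GGGTCCAAGGTCA, 42 bp from its summit, but it was not adipose-leading. An exact half-site on either strand, a single AGGTCA that DR1 matches may also contain, occurred in 4 of the 17 windows (23.5%), against 22.1% of all sites in such loci. With at most 1 base different, 0 of the 17 sites held a DR1 match, against 0.954% of all sites. A match is only a string of letters, and its absence says nothing of what binds there.

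The triglyceride lipase Pnpla2 (chr7:141455198-141460743, plus strand, 7 annotated starts) had its strongest promoter peak 14 to 56 bp upstream of the gene's 5′ end in every library but the heart ones, and the level was not highest in fat. It was highest in spleen (98.5 fed, 98.0 fasting), followed by lung (97.5 and 97.1), and lowest in heart (91.1 and 92.6) and brown adipose (91.9 and 93.0). White adipose stood at 95.5 fed and 95.3 fasting. Spleen lay above every other tissue without overlap, while lung, muscle and kidney overlapped with their neighbours in the order. Upstream of this common promoter, the site at chr7:141452026-141452469 was listed in adipose libraries only. Its percentile was 78.1 in fed and 86.5 in fasting brown adipose, and 75.5 in fed and 89.9 in fasting white adipose, with a fold enrichment over background of 2.58 to 3.23. It lies 2918 bp upstream of Pnpla2 and 1458 bp from a start of Rplp2, a ribosomal protein gene, so it cannot be assigned to either gene from position. A second adipose-only site (chr7:141454304-141454567), 739 bp upstream, had 65.5 and 60.1 in fed and fasting brown adipose and 43.2 and 78.0 in fed and fasting white adipose.

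Hormone-sensitive lipase, Lipe (chr7:25379527-25398710, minus strand), has 8 annotated starts spread over 14902 bp, and its libraries used different ones for their strongest peak. All 16 libraries lay between 90.7 (fasting heart) and 98.5 (fasting muscle). Muscle was highest, at 97.8 fed and 98.5 fasting, and did not overlap with the next tissue, lung. The muscle peak sat 3001 to 3006 bp into the gene, at the site chr7:25395199-25396949 that muscle led. In adipose tissue the strongest peak lay there in both fed libraries (3010 and 3011 bp) and near 8.3 kb in both fasting libraries (8334 bp in brown and 8338 bp in white adipose), close to the start at 8233 bp. Both sites were listed in all 4 adipose libraries at near levels: the one at 3001 bp had 92.76, 96.13, 96.73 and 95.55 in fed brown, fasting brown, fed white and fasting white adipose, and the one at 8334 bp had 91.6, 97.18, 95.14 and 95.77. Heart and kidney also had different peaks in the 2 states, at 2919 and 3025 bp when fed and at 8433 and 8617 bp when fasting. The adipose-leading site of Lipe, in an intron 6468 bp from the 5′ end, had percentiles of 78.8 and 87.0 in fed and fasting brown adipose and 55.6 and 70.4 in fed and fasting white adipose, and 42.4 in fasting kidney was the highest elsewhere.

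Mgll (chr6:88724412-88828360, plus strand), the longest of these genes, held 102 of the 337 sites, or 8.23 per 10 kb, near the 5.61 to 9.48 of the other loci. Its promoter was highest in heart (97.1 fed, 96.2 fasting) and lowest in kidney (82.4 and 92.2) and spleen (87.1 and 87.8). In liver and kidney the strongest peak lay 2477 to 2502 bp inside the gene, and elsewhere within 80 bp of the 5′ end. Both libraries of a tissue lay above all others at different sites of the gene: 7 sites were led by brown adipose, 5 each by liver, muscle and spleen, and 1 by white adipose. The intron site 30545 bp into the gene was listed in the 4 adipose libraries only, at 73.4 and 85.0 in fed and fasting brown adipose and 60.6 and 71.2 in fed and fasting white adipose. The second adipose-leading site, 10022 bp in, ranged from 51.4 to 65.5 in fat and reached 43.8 in fasting liver.

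The 2 regulators of Pnpla2 had no adipose-leading site. The activator Abhd5 (chr9:122351608-122381524, plus strand) kept its strongest peak 104 to 117 bp downstream of its 5′ end in every library, and the order of tissues ran from heart (99.1 fed, 98.8 fasting) to liver (97.3 and 96.7) with most neighbours overlapping. Its most adipose-biased site, in an intron 5722 bp in, had 53.7, 61.5, 8.07 and 59.2 in fed brown, fasting brown, fed white and fasting white adipose, and 35.4 in fasting lung. The inhibitor G0s2 (chr1:193272161-193273217, minus strand) was high in brown adipose (97.2 fed, 96.3 fasting), heart (97.4 and 95.4) and liver (95.6 and 97.2), which overlapped each other, and lowest in spleen (78.5 and 82.6). White adipose (92.7 and 92.9) lay below those 3 tissues. In 11 libraries the strongest G0s2 peak was also that of Lamb3, a laminin gene read in the other direction from a start 121 bp away, so the values of these libraries belong to both genes. Its site at 1395 bp upstream, inside Lamb3, had 71.5 and 81.3 in fed and fasting brown adipose but also 68.2 in fasting liver and 61.8 in fasting kidney.

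Among the perilipins, Plin1, the main coat of fat cell droplets (chr7:79720218-79732903, minus strand), had its strongest peak at different places in different tissues. Over all starts it was highest in kidney (97.8 fed, 96.0 fasting) and then brown adipose (93.5 and 93.8) and white adipose (90.1 and 92.3), and lowest in muscle (71.2 and 69.6). The kidney peak, however, lay upstream, at -1766 to -1761 bp, the liver peak at 5607 bp inside the gene when fed and at -1826 bp when fasting, and the heart, lung, muscle and spleen peaks 4487 to 11448 bp inside the gene, while in the adipose libraries it lay 13 to 134 bp from the 5′ end. At that start, the site chr7:79732504-79733044 had 93.5, 93.8, 90.1 and 92.3 in fed brown, fasting brown, fed white and fasting white adipose and was not listed in liver, muscle, heart or kidney. Spleen reached 67.2 fed and 61.0 fasting, and lung 13.4 and 48.5. With a window of 1000 bp, Plin1 was 35.2 points higher in adipose tissue than elsewhere (p = 0.0357 unadjusted, the smallest the exact permutation test allows), in place of 6.86 points with 3000 bp. Ranked by fold enrichment, the Plin1 difference was -17.1 points, with the same unadjusted exact permutation p (0.0357). The adipose-leading site 7601 bp upstream (78.8 to 88.1 in fat, 61.8 at most elsewhere) lies 148 bp from a start of Pex11a, a peroxisomal gene. The other 2 adipose-leading sites were listed in fat only: 646 bp into the gene (24.3 to 67.8) and 13855 bp from the 5′ end, beyond the gene (51.3 to 78.7).

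**Figure D4:**
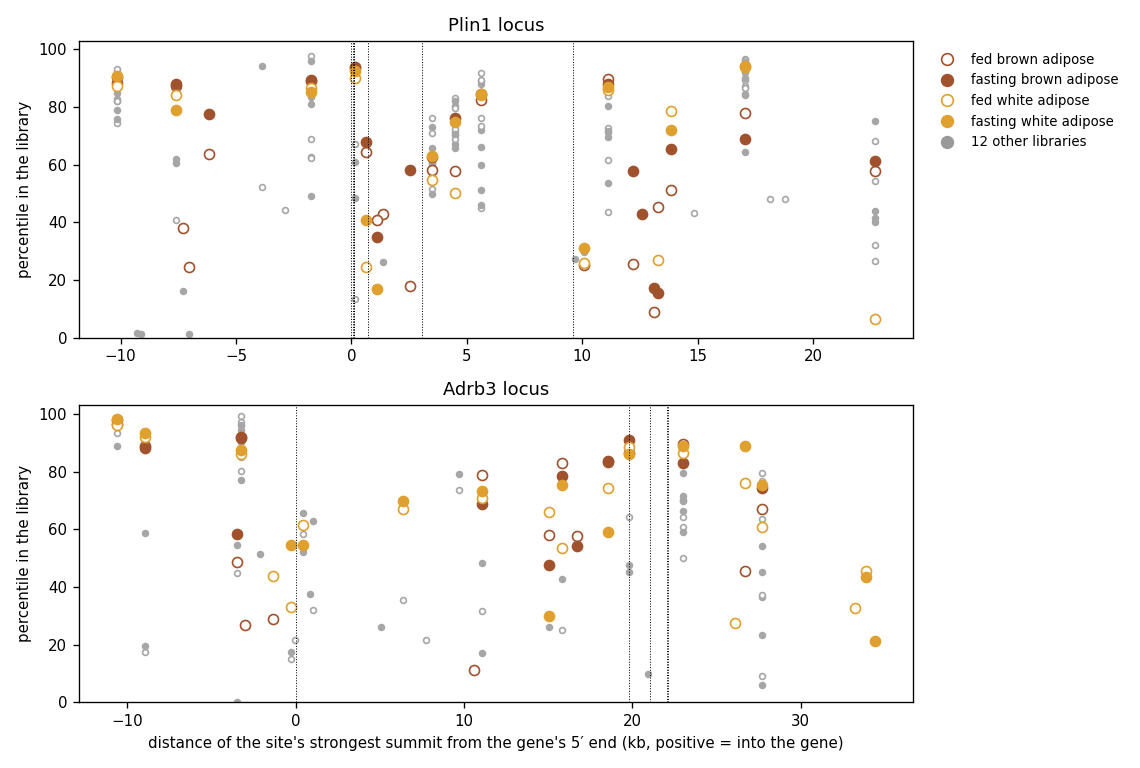
Percentile of every open site in the Plin1 and Adrb3 loci against the distance of its strongest summit from the gene's 5′ end in kb, with 1 point per library in which the site was listed; coloured points are adipose libraries (open fed, filled fasting), grey points the other 12, and dotted lines the annotated starts. Coloured points stand above grey ones at the Plin1 5′ end and at the Adrb3 start near 19.8 kb.

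Plin2, the perilipin found in most cell types (chr4:86648386-86670060, minus strand), was highest in liver, at 99.0019 fed and 98.7 fasting, above muscle (97.5 and 97.4), without overlap. Spleen was lowest, at 85.4 fed and 92.8 fasting. In muscle the strongest peak lay 12705 to 12710 bp into the gene near internal starts, at a site led by muscle, while in most libraries it lay within 100 bp of the 5′ end. Its adipose-leading site, in a coding exon 7953 bp in, had 83.0 and 87.6 in fed and fasting brown adipose and 67.4 and 73.2 in fed and fasting white adipose, with 29.1 in fasting liver as the only other listing.

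Plin5, the perilipin of cells that burn fat (chr17:56111601-56117596, minus strand), had the widest range among the 9 genes with a promoter peak in all libraries. It ran from 31.0 in fasting spleen and 42.1 in fed spleen, through lung (58.1 fed, 60.6 fasting) and heart (82.5 and 65.7), to liver (95.2 and 95.8), brown adipose (93.3 and 94.9) and kidney (97.8 and 94.5). Brown adipose lay above white adipose (83.5 and 77.5) without overlap, but the white adipose peak lay at -2373 bp when fed and -96 bp when fasting. With a window of 1000 bp, white adipose stood at 52.0 fed and 77.5 fasting and kidney at 62.2 and 78.0. Brown adipose kept its values at that window. The kidney peak lay upstream, at -2794 to -2793 bp, toward Lrg1, an acute-phase gene whose strongest peak was the same in 4 libraries, whereas in liver and brown adipose the peak lay 298 to 303 bp into the gene, at its second start. The most adipose-biased site, 4362 bp upstream, lay 43 bp from a start of Lrg1 and was highest in fed liver (83.1), above all adipose libraries (69.96 to 81.46).

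The receptor Adrb3 (chr8:27225776-27250616, minus strand) had the most adipose-leading sites and, with the 3000 bp window, the largest difference between adipose tissue and the rest. With a window of 1000 bp the differences of Plin1 (35.2 points) and Aqp7 (34.2) were above that of Adrb3 (32.7), and among the 50000 strongest rows Aqp7 (53.0) was above Adrb3 (33.7). Its promoter stood at 89.5 (fed) and 90.9 (fasting) for brown adipose, at 88.7 and 88.8 for white adipose, then 89.99 and 79.6 in liver. Muscle, spleen, heart and lung lay between 49.99 and 71.6 and kidney at 32.2 fed with no listed peak when fasting. The mean was 89.5 in adipose and 59.5 in other libraries (two-sided exact permutation p = 0.179), and without kidney the difference was 21.3 points (exact permutation p = 0.0476, unadjusted, the smallest possible there). With a window of 5000 bp the difference was -0.207 points, and a start of Got1l1 lies 4666 bp from one of Adrb3. In liver, muscle, spleen, heart and lung the strongest peak lay 22954 to 23031 bp from the outermost 5′ end. In fat it lay 19808 to 22046 bp from that end. The site chr8:27230492-27231085, whose summit is 16 bp from the start at 19792 bp, had 86.4, 90.9, 88.7 and 86.3 in fed brown, fasting brown, fed white and fasting white adipose, against 64.3 and 45.2 in fed and fasting liver, 47.7 in fasting spleen and no peak in the other 9 libraries.

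The other 5 adipose-leading sites of Adrb3 spanned its annotated intron and upstream region. The intron sites at 18554, 15819, 15037 and 11054 bp from the 5′ end had lowest adipose values of 59.1, 53.7, 30.1 and 68.7, with highest values elsewhere of 0, 42.9, 26.1 and 48.3. The strongest was upstream, at chr8:27259313-27259952, with 89.03, 88.2, 92.1 and 93.5 in fed brown, fasting brown, fed white and fasting white adipose and 58.6 in fasting heart as the highest elsewhere. It lies 8959 bp from the Adrb3 5′ end and 754 bp from a start of Eif4ebp1, a translation regulator. White adipose led 5 sites of this locus and brown adipose 3.

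The glycerol channel Aqp7 (chr4:41033074-41048139, minus strand) was highest in brown adipose, at 98.8 fed and 99.1 fasting, then in white adipose at 95.8 and 96.6, without overlap. Kidney (95.8 and 92.6) and heart (93.0 and 95.4) overlapped, and spleen was lowest at 77.5 and 76.4. The tissues did not share a peak. In fat and heart the summit was 138 to 145 bp into the gene, in kidney 2609 to 2610 bp, near the start at 2691 bp, and in liver, spleen, lung and fed muscle it lay upstream, at -2790 to -2735 bp. At the 5′ end itself (chr4:41047563-41048695) the next highest tissue after fat was heart, while lung had no peak and liver had 42.7 fed and 18.3 fasting. Kidney led 5 sites of this locus. The most adipose-biased one, in an intron 6949 bp in, had 93.6 and 95.3 in fed and fasting brown adipose and 73.6 and 83.7 in white adipose, but also 87.1 and 94.1 in fed and fasting heart.

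No shift with fasting common to the tissues was called at these promoters. Across the 8 tissues no gene passed the two-sided exact permutation test by sign flips after adjustment, and 0 of the 10 had an unadjusted p under 0.05, against 5.25% of all genes tested, where the smallest p possible is 0.00781. The lowest was Plin1, with a mean shift of -2.003 points in fasting and lower values in 6 of 8 tissues (exact permutation p = 0.0703). Within tissues, 6 of 80 pairs of gene and tissue shifted by at least 10 points, or 1 up and 5 down, against 14.3% of all pairs (6.27% up and 7.99% down). None was in an adipose tissue, but there was little room for rises. Most fed values lay less than 10 points below the top of the scale, where a fall of 10 points was possible and a rise was not. In adipose tissue such a rise was possible only for Adrb3 (89.5 fed in brown and 88.7 fed in white adipose) and for Plin5 in white adipose (83.5 fed). Among the 50000 strongest rows 28 pairs shifted. These counts therefore do not show that the 10 promoters were steadier than others.

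**Figure D5:**
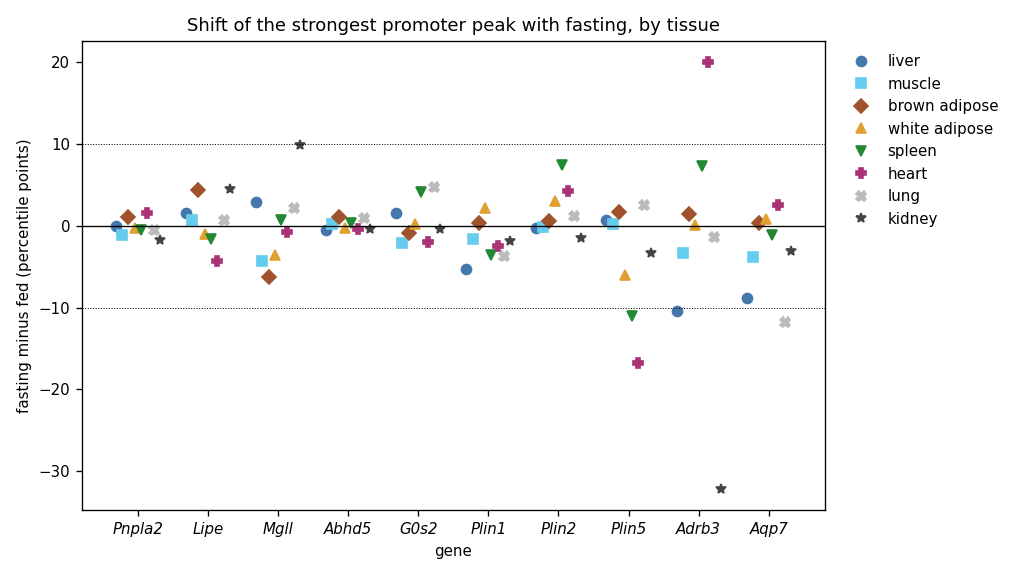
Fasting minus fed percentile of the strongest promoter peak for each gene, with 1 symbol per tissue; dotted lines mark 10 points either way. Only Plin5, Adrb3 and Aqp7 have symbols beyond the dotted lines, and no adipose symbol is among them. For most symbols the fed value lay less than 10 points below the top of the scale, so the upper line could not be passed.

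The pairs that shifted were of 3 genes. Adrb3 was 20.02 points higher in fasting heart (49.99 when fed), and the shift was -32.2 points in kidney and -10.4 in liver (89.99 to 79.6). The kidney shift rests on 1 fed peak, 1065 bp from a start, and with a window of 1000 bp or starts of protein-coding transcripts only both kidney libraries were at 0. Plin5 shifted by -16.8 points in heart (82.5 to 65.7) and -11.1 in spleen (42.1 to 31.0), where the strongest peak lay at -60 bp when fed and at -2763 bp when fasting, and Aqp7 by -11.7 in lung (86.2 to 74.5). The Plin5 peak in heart held nearly the same tags in both states, 60 fed and 59 fasting. The tags expected there from background were 19.03 fed and 27.01 fasting. The 3 low starting levels, Adrb3 in heart and kidney and Plin5 in spleen, rest on few tags: 17 and 24 tags in fed and fasting heart for Adrb3, 24 tags in fed kidney, and 18 and 19 in fed and fasting spleen for Plin5, at those 2 different peaks. At a threshold of 20 points, 2 pairs remained.

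Tag counts at the summit, recovered from the listed fold and p, gave a second view. The ratio of fasting to fed tags was taken relative to the median promoter peak of the tissue, for the 65 pairs in which both libraries had the strongest peak at the same place, and its 95% interval covers counting error only. In all, 7 pairs differed by more than 1.5-fold with an interval apart from 1, against 5.15% of all pairs, 4 of them higher in fasting (2.08% of all pairs) and 3 lower (3.07%). Plin2 was higher in fasting white adipose (1.69-fold, 1.40 to 2.05, from 250 fed and 191 fasting tags), spleen (1.54-fold, 1.06 to 2.27) and heart (1.63-fold, 1.18 to 2.27). The macrophage markers were also higher in the fasting libraries of white adipose (46.2 to 72.7) and heart (25.4 to 51.2), and lower in that of spleen (81.7 to 74.5), and their part was not tested. The Plin2 percentile moved with the ratio, from 94.0 to 97.1 in white adipose, 85.4 to 92.8 in spleen and 93.7 to 97.9 in heart. Mgll had a ratio of 0.602 at its peak near the 5′ end in brown adipose (0.494 to 0.729, 722 fed and 126 fasting tags) and of 1.76 at its peak 2482 to 2489 bp inside the gene in kidney (1.42 to 2.21). Adrb3 and Aqp7 had ratios of 0.525 (0.325 to 0.848) and 0.574 (0.376 to 0.878) in liver. The tags were few and nearly equal, 38 fed and 37 fasting for Adrb3 and 46 and 49 for Aqp7. The median promoter ratio in liver was 1.85 and the background ratio 1.007. Scaled to the background, the 2 genes had ratios of 0.967 and 1.06. Plin5 in heart, where the percentile was lower in fasting, was not among the 7 pairs, with a ratio of 1.008 (0.6916 to 1.468). Scaled to the genome background in place of promoters, only the Mgll ratios stayed past 1.5-fold, at 0.330 and 1.71, and 18 pairs in all were past it. Those in liver were all higher in fasting (1.72 to 2.71) and those in brown adipose all lower (0.330 to 0.604).

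At the 17 adipose-leading sites the fed and fasting libraries of brown adipose were close. The median shift with fasting was 0.342 points, 2 sites were at least 10 points higher (13% of the 5891 adipose-leading sites of all protein-coding loci) and 2 at least 10 points lower (15.4%). In white adipose 6 of 17 were at least 10 points higher, against 35.9% of all such sites, and 2 at least 10 points lower, against 10.7%. The 6 were both Pnpla2 sites, the Lipe and the distal Mgll intron sites, the Plin1 site at 646 bp and the Adrb3 site at 15819 bp (53.7 to 75.2). The largest single shift was at the Adrb3 site at 15037 bp, from 66.1 to 30.1 in white adipose and from 58.1 to 47.5 in brown adipose. The background tags of the 2 white adipose libraries differed (10.02 fed and 5.87 fasting), as did macrophage markers (46.2 fed and 72.7 fasting) and epididymis markers (56.6 fed and 28.01 fasting), and the part of depth and of other cells in these shifts was not tested.

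Other tissues also had sites of their own in these loci. Both libraries of 1 tissue lay above all others at 104 of the 337 sites (30.9%), against 29.2% of all sites in loci of protein-coding genes. Brown adipose led 31 of them (9.20% of the 337, against 2.77% of all sites) and white adipose 9 (2.67%, against 1.35%). Liver led 15 (4.45%, against 4.20%), spleen 14 (4.15%, against 6.27%), muscle 13 (3.86%, against 4.77%), kidney 10 (2.97%, against 5.09%), lung 7 (2.08%, against 2.59%) and heart 5 (1.48%, against 2.12%). Plin1 held 8 of the brown adipose sites and Mgll 7, and of the 15 liver sites 5 were in Mgll and 4 in Plin2.

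The wider lipolysis and droplet pathway was read from 43 further genes. Of these 24 followed tissue by the same exact permutation test (48.1% of all genes did), 30 had a higher mean percentile in adipose tissue (52.7% of all genes), and 0 had all adipose libraries above all others (1.2% of all genes). Of the 11 receptor and cAMP genes 10 were higher in adipose tissue, with a median difference of 2.59 points, and 7 followed tissue, all 7 higher in adipose tissue. Of the 6 triglyceride synthesis genes 2 were higher and the median was -0.850, and of the 5 transcription factors 3 were higher, with a median of 0.926. The largest differences were of Pck1, the enzyme that feeds glycerol synthesis from small precursors (92.5 in adipose, 28.7 elsewhere), Cidec, a droplet fusion protein (94.3 against 39.3), and Hcar2, the receptor through which hydroxybutyrate and niacin restrain lipolysis (79.0 against 32.7). Pck1 and Hcar2 followed tissue (adjusted exact permutation p = 0.0243 and 0.00897), and Cidec did not pass (0.0622). The lowest were Aqp3, another glycerol channel (48.8 against 78.5), Cideb (69.6 against 75.2) and Abhd6 (89.2 against 93.3). Cidec is also among the adipocyte markers above. Only Aqp9, the glycerol channel of liver, shifted by 10 points in an adipose tissue, from 68.0 fed to 90.1 fasting in white adipose. Most fed adipose values of these genes lay less than 10 points below the top of the scale, where a rise of that size was not possible.

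The 10 promoters varied in different ways across tissues. Over their 45 pairs, the correlation of promoter percentile across the 16 libraries had a median of 0.0889 and was above 0 in 26. G0s2 and Plin5 were most alike (r = 0.734), followed by G0s2 and Aqp7 (0.722), and Pnpla2 and G0s2, the lipase and its inhibitor, were the most opposed (r = -0.859). In 11 libraries the G0s2 value is a peak shared with Lamb3, and Pnpla2 ranged only from 91.05 to 98.45. These correlations are descriptions over libraries that share mice, with 2 libraries per tissue, and were not set beside those of other gene pairs. Among all protein-coding genes, the promoters most like Plin5 were Gpr17 (r = 0.945), Myom3 (0.941) and P2rx5 (0.936), those most like Adrb3 were Gypc, Egf and Hsd11b1 (0.895 to 0.908), and those most like Aqp7 were Npas2, St6galnac2 and Pdilt (0.872 to 0.892). For Plin1 they were Als2cr12, Dmtn and Syde2, for Plin2 Agbl5, Mymx and Phldb1, for G0s2 Adcy8, Gm21974 and Vkorc1, and for Pnpla2 Pifo, Sh2d5 and Car9, with r from 0.870 to 0.908. Likeness was weaker for Lipe (Sugct and Mplkip, which have the same values, and Mycbp, 0.791 to 0.817) and Mgll (Gch1, Zfhx3 and Myocd, 0.754 to 0.773), and for Abhd5 the 3 were Gm10722, Gm11168 and Rbms3 (0.893 to 0.909). Gm21974 and Vkorc1 also had equal r (0.8855) and equal mean percentiles, as had Gm10722 and Gm11168 (0.9086).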

How the data were processed

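ATAC-seq peak lists of 16 libraries, 1 for each of 8 tissues in fed and fasting mice, were read as deposited. Per the submitters' processing notes, the authors used Bowtie2, MACS2 and the build GRCm38, and the study's methods name the Kundaje laboratory ATAC-seq pipeline, with adapters trimmed, unmapped and duplicate reads removed and peaks called at q under 0.01, although 8 of the deposited lists also hold peaks above that q. The deposited values are a fold enrichment (ratio) over local background and the -log10 p-value and -log10 q-value of each summit, all as the peak caller gave them. Tn5 shifting and tool versions were not given in the sources used here.

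Summits were matched to GENCODE vM21 starts (3000 bp either side) and to gene bodies extended by 10000 bp. The percentile of -log10 p was taken within each library, tags at a summit were solved from fold and p (at least 99.99% came out whole), and sites were merged from peaks with q under 0.01. Depth is known only through these tags, from 2.8 to 12.77 background tags per summit, and intervals cover counting error only. Tests were exact permutation tests with Benjamini-Hochberg adjustment over 19719 genes. Named were all 10 genes, their close neighbours, the 3 genes most like each, the 3 highest and 3 lowest pathway genes and those shifted in fat, adipose-leading sites and the site of each locus with the largest adipose difference. Other sites led by a single tissue were picked after their values were seen. The genes and lists were chosen with earlier results of these data known. Alternatives changed the window, starts, ranking, rows, thresholds, and left out each tissue in turn. The software was matplotlib 3.10.9, pandas 2.3.3, scipy 1.17.1 and numpy 2.4.6 under Python 3.11.15, and the scripts were tested on simulated data.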

Additional observations from a re-analysis of the deposited data

Results flagged for a closer look

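The strongest Mgll promoter peak had opposite ratios in 2 tissues, at different peaks: summit tags in fasting over fed had a ratio of 0.602 in brown adipose, near the 5′ end, and of 1.76 in kidney, 2482 to 2489 bp inside the gene, both relative to the median promoter peak of the tissue. With 1 library per state in each tissue, the difference between the tissues was not tested.

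The Adrb3 promoter percentile was 20.02 points higher in fasting heart, while it was lower in fasting liver (-10.4 points) and fasting kidney (-32.2 points, where no peak was listed). With a window of 1000 bp or starts of protein-coding transcripts only, Adrb3 was at 0 in both kidney libraries, so the kidney shift was absent. The difference between these tissues was not tested.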

How the results depend on the processing

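Of 272 alternative values, 231 kept their direction and side of the threshold, and of the 122 counts among them 105 stayed within 1.5 times. Fed and fasting libraries were paired by tissue throughout.

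The number of genes with all adipose libraries above all others was 2 with a window of 1000 bp, and 0 when ranked by fold enrichment or over distinct regions; leaving out each tissue in turn gave 1 to 2 (2 without liver). Genes that followed tissue numbered 4 when ranked by fold and 5 to 7 with a tissue left out. Pairs shifted with fasting numbered 3 with a window of 5000 bp, 16 by fold, 28 among the 50000 strongest rows, 13 at 5 points, 2 at 20 points, and 4 to 6 with a tissue left out. Pairs past the tag ratio numbered 18 scaled to the genome background, most of them in liver and brown adipose, 0 past 2-fold, and 5 to 7 with a tissue left out. Pathway genes that followed tissue numbered 15 to 25 with a tissue left out, 15 of them without spleen. Adipose-leading sites numbered 11 by fold and 17 to 41 with a tissue left out, an alternative chosen after seeing the data (26 without brown adipose, 41 without white adipose). With at most 1 base different, 0 DR1 matches remained.

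The adipose minus other difference changed sign by fold enrichment for Lipe (-15.04), Abhd5 (-0.933), G0s2 (-3.25), Plin1 (-17.1) and Adrb3 (-0.909). With a window of 1000 bp it did so for Mgll (0.681) and Plin2 (0.551, also with starts of protein-coding transcripts only), and with 5000 bp for Lipe (-0.00868) and Adrb3 (-0.207). Over distinct regions Lipe was at -0.25. With a tissue left out, Lipe ranged from -0.435 to 0.848, Mgll from -1.54 to 0.326 and Plin2 from -1.25 to 0.697. The cause of these changes was not tested. A single library per group and the depth of the shallower libraries limit every comparison of fed with fasting.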
